A study of Mus musculus with 20 samples.

Results

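The cytosolic ribosomal protein genes were examined member by member in single thymic NK1.1- IELPs, the thymocytes that give rise to CD8αα+ intraepithelial lymphocytes. Members were the genes whose names begin with Rps or Rpl, without loci that carry -ps in the name, without the Rps6k kinases and without names joined by a bar. This gave 82 of the 25307 genes listed, 32 with small subunit names and 50 with large subunit names. By the labels and the series text, cells came from 3 mice, 1 per genotype, all carrying the TBGR allele, in which ZsGreen reports T-bet: a wild type TBGR mouse of 4 weeks, a TBGR C-myc fl/fl mouse of 2 weeks with a floxed but intact C-myc gene, and a TBGR C-mycD/DCd4 mouse of 2 weeks in which a Cd4-Cre transgene deletes the floxed gene. Cells were sorted by CD122, the receptor chain encoded by Il2rb, and by ZsGreen into 4 populations. T-bet- cells were split into CD122- and CD122+ cells, and CD122+ cells with ZsGreen into those with an intermediate (int) and those with a high signal. Every population of the wild type mouse was covered by a pair of libraries, and so were both T-bet- populations of the C-mycD/DCd4 mouse. Of the C-myc fl/fl libraries, 4 combined the T-bet- populations and 4 combined int and high cells, with 48 wells for each. Libraries of a population are numbered within the mouse. The series text names 1 mouse for a genotype while the study's text speaks of mice in the plural, and the labels tie no library to an animal. Libraries are therefore taken as parts of 1 animal, no p-value was computed, and age cannot be told apart from genotype when the wild type mouse is set beside the others.

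Ribosomal proteins assemble with ribosomal RNA into the small and the large subunit of the ribosome. They are needed in near equal amounts, their mRNAs are among the most abundant of a growing cell, and many of these mRNAs start with a run of pyrimidines that ties their translation to nutrient and growth signals. C-Myc is known to raise the transcription of ribosomal protein and ribosome biogenesis genes. Cd4-Cre is active from the CD4+CD8+ double positive stage, from which NK1.1- IELPs arise.

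After cells with fewer than 2000 transcripts had been removed, 1413 of 1920 wells remained, in 28 sums of a library and a population. Each sum held 22 to 94 cells, 94268 to 775264 transcripts and 4002 to 92476 transcripts of the family. Levels are given as CPM, with the transcripts of all nuclear genes as the total, and as transcripts per 10000 transcripts of the family, which shows whether a member moved otherwise than the family sum. The labels were checked with 3 genes. Il2rb lay at 2.61 to 9.88 CPM in the CD122- populations and at 222 to 515 CPM in the CD122+ populations. With libraries summed, Tbx21, which encodes T-bet, reached 6.60 CPM at most in T-bet- cells. It lay between 18.8 and 165 CPM in T-bet int and high cells. Single libraries overlapped, with 13.4 CPM (3 transcripts) in library 2 of the C-myc fl/fl CD122+T-bet- cells. Library 3 of the C-myc fl/fl T-bet int cells had 12.4 CPM (2 transcripts). Myc was counted in the deleted mouse at 16.7 and 30.0 CPM in the CD122- libraries and at 44.5 and 9.96 CPM in the CD122+ libraries. The C-myc fl/fl libraries had 63.0, 14.0, 62.3 and 24.4 CPM of Myc in CD122- cells and 73.8, 125, 135 and 10.6 CPM in CD122+ cells. The libraries overlapped in both populations, and whether the counted end of Myc lies in the floxed part is not given in the sources used here. Rounded sums of 1 to 30 transcripts lie behind these Myc values, so this check of the deletion is only partial.

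A set of 16 loci that marks low-quality cells, led by Gm10800 with 22.2% of all transcripts, moved with the groups. These loci took 9.24% of transcripts in wild type T-bet int cells and 50.7% in C-myc fl/fl CD122-T-bet- cells, and they lower the CPM of every other gene. Library 4 of the C-myc fl/fl T-bet- cells stood apart, with 57.7% in its CD122+ and 63.0% in its CD122- cells. Shares within the family do not depend on this total, since these loci are no part of the family. Where members are counted below with these loci left out, each cell also had to hold 2000 transcripts of the remaining genes, so fewer cells entered on both scales. T cell genes were counted in every population, with Cd3d, Cd3e, Cd3g, Lck and Thy1 all above 0. Of the markers of B cells and myeloid cells, Cd79a, Ms4a1, Csf1r and Itgax were each at 0 in at least 1 population. The B cell markers reached their highest sum, 114 CPM, in the deleted CD122+ cells, with 12.7 CPM in library 1 and 194 CPM in library 2. The myeloid markers summed to at least 29.6 CPM in every population. Their highest sum, 216 CPM, was in wild type CD122+T-bet- cells.

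Members differed greatly in level. Because CEL-Seq2 counts 1 tag at the 3′ end of each molecule, no scaling by transcript length was applied. Over all cells Rpl4 had the most transcripts, 26550, which was 3.1% of the family. Rpsa, the laminin receptor that sits in the small subunit, followed with 26071. Other abundant members were Rpl23, Rps23, Rps20, Rps6, Rps9, Rps3a1 and Rpl5, from 22636 down to 19806 transcripts. At the other end, Rpl3l had 1 transcript, Rpl10l 2, Rpl39l 13, Rps12 36 and Rpl35 45, while Rps19bp1 and Rps27 lay just above the minimum of 100 with 165 and 169. In all, 70 members had at least 1000 transcripts and 12 had fewer.

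The authors kept only reads with 1 best match, so a gene whose end is repeated elsewhere in the genome can lose counts. Among 81 members with a principal transcript in GENCODE vM21 (GRCm38), the last 300 bases were compared with all other genes in windows of 50 bases. No window was shared for 24 members, whose median was 11700 transcripts. Over 90% of windows were shared for Rpl10, Rpl36a, Rpl9, Rps27, Rpl35 and Rps12, whose median was 281 transcripts. Of these, Rpl36a had 5460 transcripts and the others 36 to 742, and the levels of all 6 genes are uncertain. A further 82694 transcripts were counted at 16 loci with -ps in the name, led by processed copies such as Rpl23a-ps3 with 14035 and Rps26-ps1 with 11789 transcripts. Among the genes named below, Rps20, Rpl13a, Rpl12, Rpl28 and Rpl31 shared no window. Rps9 shared 34.7% with 1 other gene, Rps26 62.5% with 4, Rpl38 65.3% with 5 and Rps27rt 88.4% with 8. Large parts were also shared for Rpl10a (87.3%), Rpl13 (83.3%), Rps15a (77.3%), Rplp1 (66.9%), Rpl22l1 (63.3%) and Rpl17 (56.2%), among others. The same holds for Rpl27 (83.3%), Rpl23a (80.9%) and Rps18 (78.5%).

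Start sites were compared because pyrimidine starts are the best known shared sequence of the family. RefSeq promoter windows (GRCm38.p6) were matched for 62 of the 82 members. A C followed by at least 4 pyrimidines stood exactly at the annotated start in 13 of these 62 (21.0%) and in 2.49% of 27025 promoters. The same letters lay wholly within the stretch from 5 bases before to 15 bases after the start in 31 of the 62 members and in 24.5% of all promoters. The C-Myc binding letters CACGTG, which read the same on both strands, were found in the whole window of 300 bases in 8.06% of the members and in 7.24% of all promoters. The lines below show 15 bases before the start and 15 bases from the start for 6 members whose share within the family moved in a comparison. They hold genes that went in opposite directions. Capitals mark the pyrimidine run where it begins exactly at the start.
Rps9, chr7:3704026-3704055, plus strand: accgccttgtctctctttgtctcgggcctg
Rps26, chr10:128626492-128626521, minus strand: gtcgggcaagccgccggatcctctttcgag
Rpl28, chr7:4792950-4792979, plus strand: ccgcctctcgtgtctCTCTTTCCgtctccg
Rpl31, chr1:39367836-39367865, plus strand: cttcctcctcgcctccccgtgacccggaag
Rpl38, chr11:114668565-114668594, plus strand: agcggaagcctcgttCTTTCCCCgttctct
Rps15a, chr7:118116133-118116162, minus strand: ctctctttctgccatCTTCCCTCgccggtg
In Rps9 and Rps26 a pyrimidine run lies beside the annotated start but does not begin at it. Rps15a and Rpl38, which were higher in their comparisons, and Rpl28, which was lower, all carry the run at the start. Rps9, Rps26 and Rpl31, which were lower in theirs, have no run that begins at the start. Neither have Rpl13a and Rps24, which are not shown and were called higher in a comparison below. The directions come from different comparisons, and a link between the run and the direction was not tested.

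**Figure D1:**
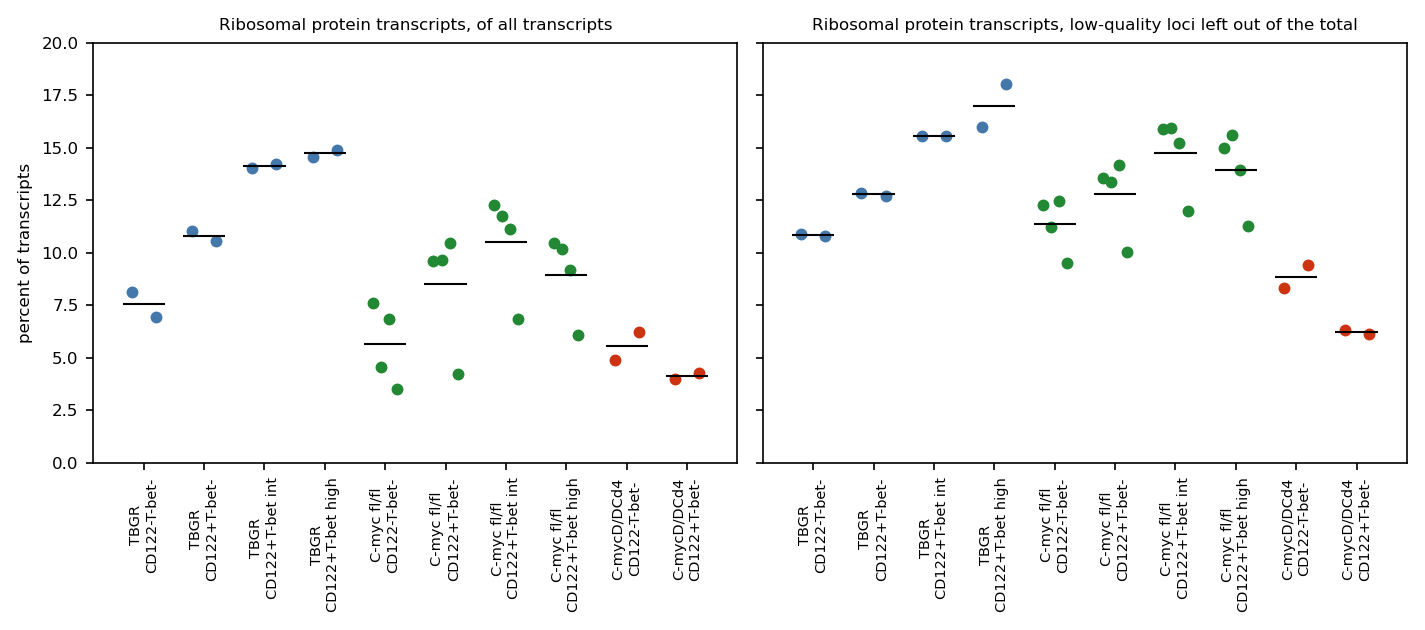
Share of the family among all transcripts in percent (vertical axis) for each population of the 3 mice, with 1 point for each library and a line for the mean of the libraries. The deleted CD122+T-bet- libraries lie at 3.98% and 4.26%, and library 4 of the C-myc fl/fl CD122+T-bet- cells lies at 4.25% while the highest library of that group reaches 10.5%.

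A member was called higher or lower where it had at least 100 transcripts over both groups, its log2 ratio was at least 0.3 in size, and the libraries of the groups did not overlap. For comparisons within the C-myc fl/fl libraries, the ratio had to have the same sign in all 4 libraries. The same rule was applied to all genes for comparison. Where cells, totals or libraries were changed, only members were counted, so those counts have no share of all genes beside them. Intervals in brackets are exact 95% intervals that cover counting error only, so the spread between libraries and mice is not in them.

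The first comparison asked how the members changed as CD122 appeared on T-bet- cells. In the wild type mouse 63 of 74 tested members were called higher in CD122+ cells and 0 lower, where 41.4% of all genes were called higher and 9.88% lower. The members had a median log2 ratio in CPM of 0.51 and all genes one of 0.28. Rpl38, a large subunit protein known for its part in the translation of Hox mRNAs, led with 510 CPM in CD122- and 1097 CPM in CD122+ cells, a log2 ratio of 1.10 [0.96, 1.25]. Rpl32 at 0.83 and Rpl13 at 0.76 followed, and the smallest ratios belonged to Rplp1 at 0.11 and Rpl8 at 0.19, which were not called. In the C-myc fl/fl mouse 53 of 69 members were called higher and 0 lower, against 39.1% and 5.03% of all genes, with a median of 0.69 beside 0.55 for all genes. Among members with at least 1000 transcripts, Rpl32 led here with 630 and 1267 CPM, a log2 ratio of 1.004 [0.85, 1.16], followed by Rpl39 at 0.95 and Rps21 at 0.88. The median of the members was above 0 in each of the 4 libraries, from 0.23 to 1.12. With the low-quality loci left out of the totals, these counts went to 22 in the wild type mouse (median 0.20) and to 5 in the C-myc fl/fl mouse (median 0.13). Centred on the median ratio of all genes, the counts were 26 and 3. The share of the low-quality loci itself was 30.5% in CD122- and 15.3% in CD122+ cells of the wild type mouse and 50.7% and 31.4% in those of the C-myc fl/fl mouse.

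Within the family few members left the common course at this step. In the wild type mouse 3 members were called higher as a share of the family and 3 lower, where 11.4% and 39.0% of all genes were called on the same denominator. Without library 2 of the CD122- cells 12 members were called. Rpl38 rose from 63.0 and 72.9 per 10000 in the CD122- libraries to 102.9 and 99.5 in the CD122+ libraries, a log2 ratio of 0.58 [0.44, 0.73], and was called under every alternative run. Rplp1, a protein of the ribosomal stalk that recruits elongation factors, stood at 202.9 and 192.8 and then at 154.6 and 142.8 per 10000. It was called lower at -0.41 under every alternative, and Rpl8 was called lower at -0.33. In the C-myc fl/fl mouse 2 members were called higher and 0 lower, where 8.30% and 16.8% of all genes were called, and Rpl32 was the one above 1000 transcripts, with a ratio of 0.33 beside 0.31 in the wild type mouse. Its call was lost after thinning and after the removal of cycling cells. Rpl38 stood at 64.8 per 10000 in C-myc fl/fl CD122- and at 91.1 in CD122+ cells, with fewer than 1000 transcripts over both groups. Over the 46 members with at least 1000 transcripts in both mice, 27 had the same sign within the family and Pearson's r was 0.19. Points are members of shared libraries, and r was -0.20 after thinning and 0.43 without cycling cells.

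**Figure D2:**
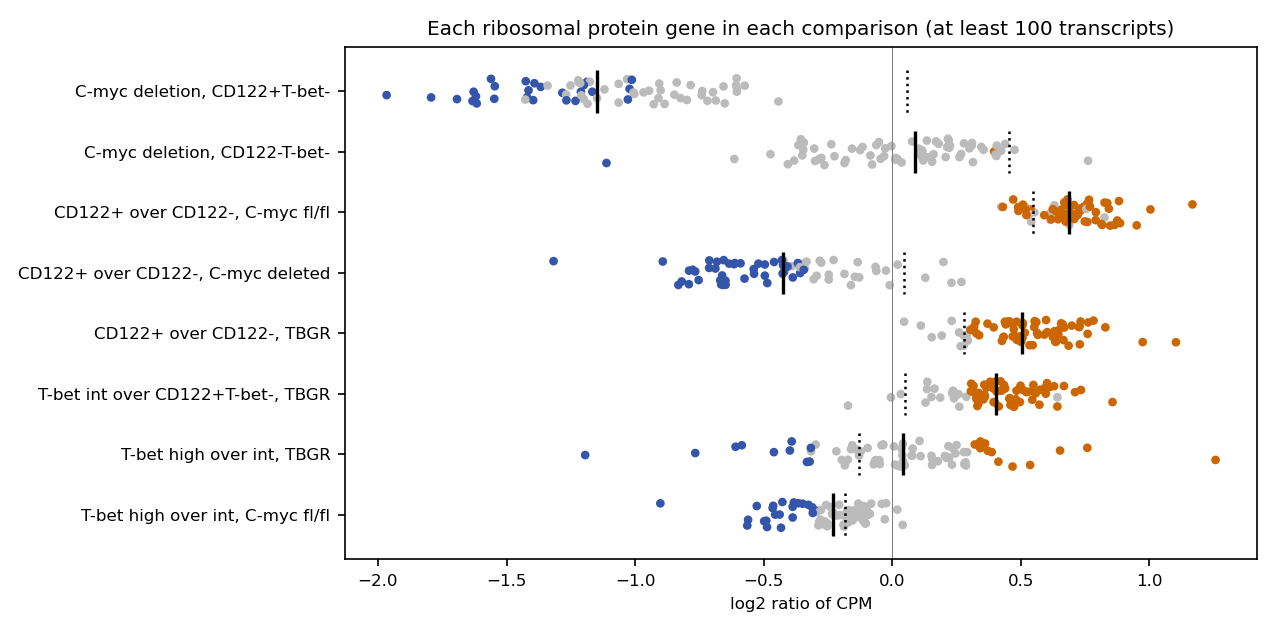
Log2 ratio in CPM (horizontal axis) of every tested member in each of the 8 comparisons, with members called higher in orange, called lower in blue and not called in grey. The solid line is the median of the members and the dotted line that of all genes, which lie at -1.15 and 0.06 for the deletion in CD122+T-bet- cells.

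At the next step, into T-bet int from CD122+T-bet- cells, 59 of 75 members were called higher in the wild type mouse and 0 lower, beside 23.6% and 17.9% of all genes. The median ratio was 0.41 in CPM and that of all genes 0.05. Rpl36al, a paralog of the large subunit gene Rpl36a, led the members above 1000 transcripts with 0.73 [0.55, 0.92], followed by Rps27rt at 0.67, Rpl38 at 0.64 and Rps18 at 0.63. Once the low-quality loci were left out of the totals, 39 members were called and the median was 0.30. Rps14, a small subunit protein known for its loss in the human 5q deletion, was with Rpl7l1 (-0.0048) the tested member with a ratio below 0, at -0.17. It was counted at 1392 CPM and then at 1236 CPM, and its share of the family fell from 129.1 and 128.1 to 86.9 and 88.2 per 10000, a log2 ratio of -0.56 that was called under every alternative. Rpsa had nearly the same CPM in both populations, 3398 and 3478, and was called lower within the family at -0.35. In all, 3 members were called higher and 3 lower within the family, where 5.13% and 47.1% of all genes were called. Without library 1 of the T-bet int cells 10 members were called.

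From T-bet int to T-bet high cells the family as a whole had a median ratio near 0 in the wild type mouse. In CPM 12 of 75 members were called higher and 10 lower, where 16.4% and 34.4% of all genes were called. The median was 0.04, and -0.04 once cycling cells were removed. Within the family 9 were called higher and 12 lower, against 14.4% and 38.0% of all genes. None of these 4 shares of members was above that of all genes. Rps26, a small subunit protein near the mRNA exit channel, was at 157.1 and 167.9 and then at 104.6 and 103.3 per 10000, a log2 ratio of -0.64. It was thus lower in each high library than in each int library. Rpl31 fell from 149.3 and 136.1 to 84.2 and 101.6 per 10000, a ratio of -0.67, and Rpl28 from 126.3 and 137.2 to 93.3 and 89.5, a ratio of -0.52. Rps25, a small subunit protein used by internal ribosome entry sites, was called lower at -0.45. In the other direction, Rps27rt, an intronless copy of Rps27, rose from 134.5 and 142.4 to 207.2 and 213.5 per 10000, a ratio of 0.60. Rps14 regained part of its share at 0.48, and Rps24, Rpl13a, Rps16 and Rps15a were called higher at 0.36, 0.33, 0.32 and 0.31. The C-myc fl/fl mouse showed no such dip of Rps14, with 151.9, 155.8 and 161.9 per 10000 in CD122+T-bet-, int and high cells. Each wild type population had libraries of its own, so population and library cannot be told apart in the wild type steps. Rpl31, Rps26, Rpl28 and Rps27rt were called under every alternative run. Library 2 of the T-bet high cells held 55 cells and had 3.63% as many family transcripts in its empty wells as in its cells, where the other libraries had 0.13% to 0.69%.

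The C-myc fl/fl mouse gave the same step in libraries that held both populations. In CPM 0 of 71 members were called higher and 22 lower, against 7.50% and 22.3% of all genes, with a median of -0.23 beside -0.18 for all genes. Relative to the median of all genes 7 members were called, and 9 with the low-quality loci left out. Within the family 0 were called higher and 4 lower, where 15.0% and 9.67% of all genes were called. Rps26 was at 186.0, 160.0, 174.2 and 216.7 per 10000 in the int cells and at 162.5, 128.8, 140.6 and 141.8 in the high cells of libraries 1 to 4, a log2 ratio of -0.30 [-0.42, -0.18]. It was lower in the high cells of all 4 libraries, but its ratio lies at the threshold and the call held in 9 of 14 settings. It was lost with 3000 transcripts per cell, with -ps loci added, with low-quality loci left out, and without library 3 or library 4, with ratios from -0.40 to -0.25 over all settings. Rps27l and Rpl22l1, with fewer than 1000 transcripts, were also called lower. Without library 4 of these cells 1 member was called. Rpl31, Rpl28 and Rps27rt, which moved in the wild type mouse, were at 139.6 and 136.6, at 127.9 and 127.2, and at 82.8 and 95.2 per 10000 in the C-myc fl/fl int and high cells and were not called. Over 57 members with at least 1000 transcripts in both mice, 38 had the same sign and Pearson's r was 0.58, with 0.42 to 0.62 under the alternatives. Rps26, Rps27l and Rpl22l1 were among the members called lower within the family in both mice.

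**Figure D3:**
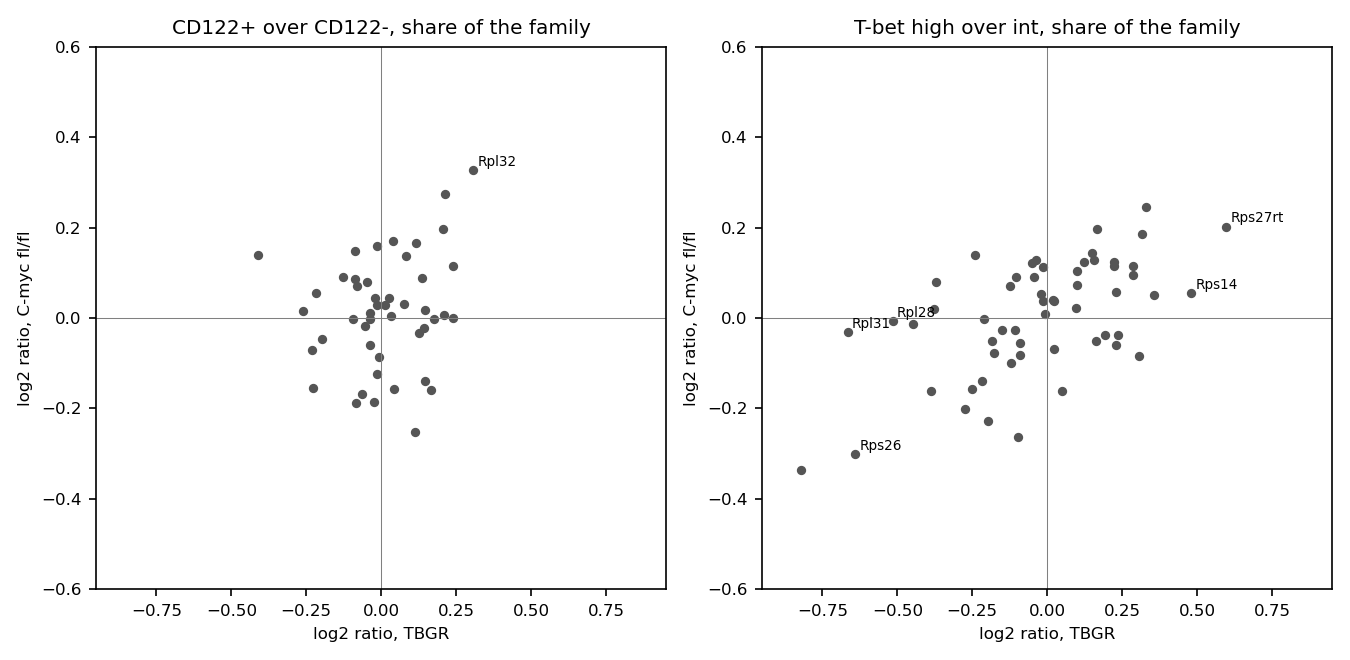
Log2 ratio within the family in the wild type mouse (horizontal axis) and in the C-myc fl/fl mouse (vertical axis) for members with at least 1000 transcripts in both, for CD122+ over CD122- and for T-bet high over T-bet int cells. Pearson's r is 0.19 over 46 members and 0.58 over 57 members, and Rps26 lies at the lower left of the T-bet plot. Points far from 0 carry a name where the text describes the gene.

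Loci named as copies of Rps26 and Rpl13a were counted apart from the family. Rps26-ps1, a locus outside the family that resembles Rps26, had a ratio of -0.69 to the family sum in the wild type T-bet step and was called lower as Rps26 was. In the C-myc fl/fl mouse its ratio was -0.25 and it was not called. Rpl13a-ps1 was called higher at 0.93 in the wild type mouse beside 0.33 for Rpl13a. Part of the end of Rps26 is shared with other genes, as given above, so its level is uncertain, while Rpl13a shared no window. Both loci of these pairs had a ratio of the same sign in this step in both mice. Other pairs did not all move together. In the wild type mouse Rpl10-ps3 was called lower at -0.37 while Rpl10, whose level is uncertain, was called higher at 0.703. Rpl27-ps3 was not called there while Rpl27, with 62 transcripts in int and 81 in high cells, was called higher. Other genes share 83.3% of the windows at the end of Rpl27, so its level is uncertain as well. In these pairs the counts of the -ps locus did not follow those of the member it is named after, whose level is uncertain.

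The deletion of C-myc was compared in the T-bet- populations of the mice of 2 weeks. In CD122+T-bet- cells all 69 tested members had a lower CPM in the C-mycD/DCd4 mouse than in the C-myc fl/fl mouse. Of these, 26 were called lower and 0 higher, where 12.4% of all genes were called lower and 27.1% higher. The median of the members was -1.15 and that of all genes 0.06. Library 4 of the C-myc fl/fl mouse, whose low-quality share is given above, overlapped with the deleted libraries for the rest. Without it all 69 were called, and with the low-quality loci left out 63 were called at a median of -1.11. After cells with 5 or more transcripts of cycling genes had been removed, the median was -0.91 and 3 members were called. Cycling genes summed to 449 CPM in the deleted and 2053 CPM in the C-myc fl/fl CD122+T-bet- cells, and their part in the difference was not tested further. Among members with at least 1000 transcripts the fall was largest for Rps9, followed by Rpl10a at -1.63 and Rps20 at -1.62, with Rpl5 also among the lowest at -1.55. It was least for Rpl17 at -0.60 and Rps15a at -0.60.

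Rps9, a small subunit protein of the mRNA entry region, showed the largest departure from the family in both populations. The gene lies at chr7:3703993-3706897 on the plus strand (GRCm38). In CD122+T-bet- cells it was counted at 2863, 2631, 2833 and 1008 CPM in the C-myc fl/fl libraries and at 581 and 709 CPM in the deleted libraries, a log2 ratio of -1.97 [-2.12, -1.82]. In CD122-T-bet- cells it was counted at 2327, 1572, 2077 and 951 CPM and at 686 and 911 CPM, a ratio of -1.11 [-1.25, -0.98], and it was the 1 member called lower in CPM there. As a share of the family, Rps9 took 297.6, 272.5, 271.0 and 237.4 per 10000 in the C-myc fl/fl CD122+ libraries and 145.9 and 166.4 in the deleted libraries, a ratio of -0.81 [-0.96, -0.67]. In CD122- cells it took 306.8, 345.3, 302.8 and 270.0 and then 140.2 and 146.9 per 10000, a ratio of -1.09 [-1.23, -0.96]. All 4 deleted libraries lay below all 24 sums of the other mice, which ran from 214.2 to 345.3 per 10000. Its call within the family held in 16 of 16 settings in each population, with ratios from -0.92 to -0.66 in CD122+ cells and from -1.14 to -0.64 in CD122- cells. The other mice differ from the deleted mouse by animal as well as by C-myc, and these cannot be told apart with 1 mouse per genotype.

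**Figure D4:**
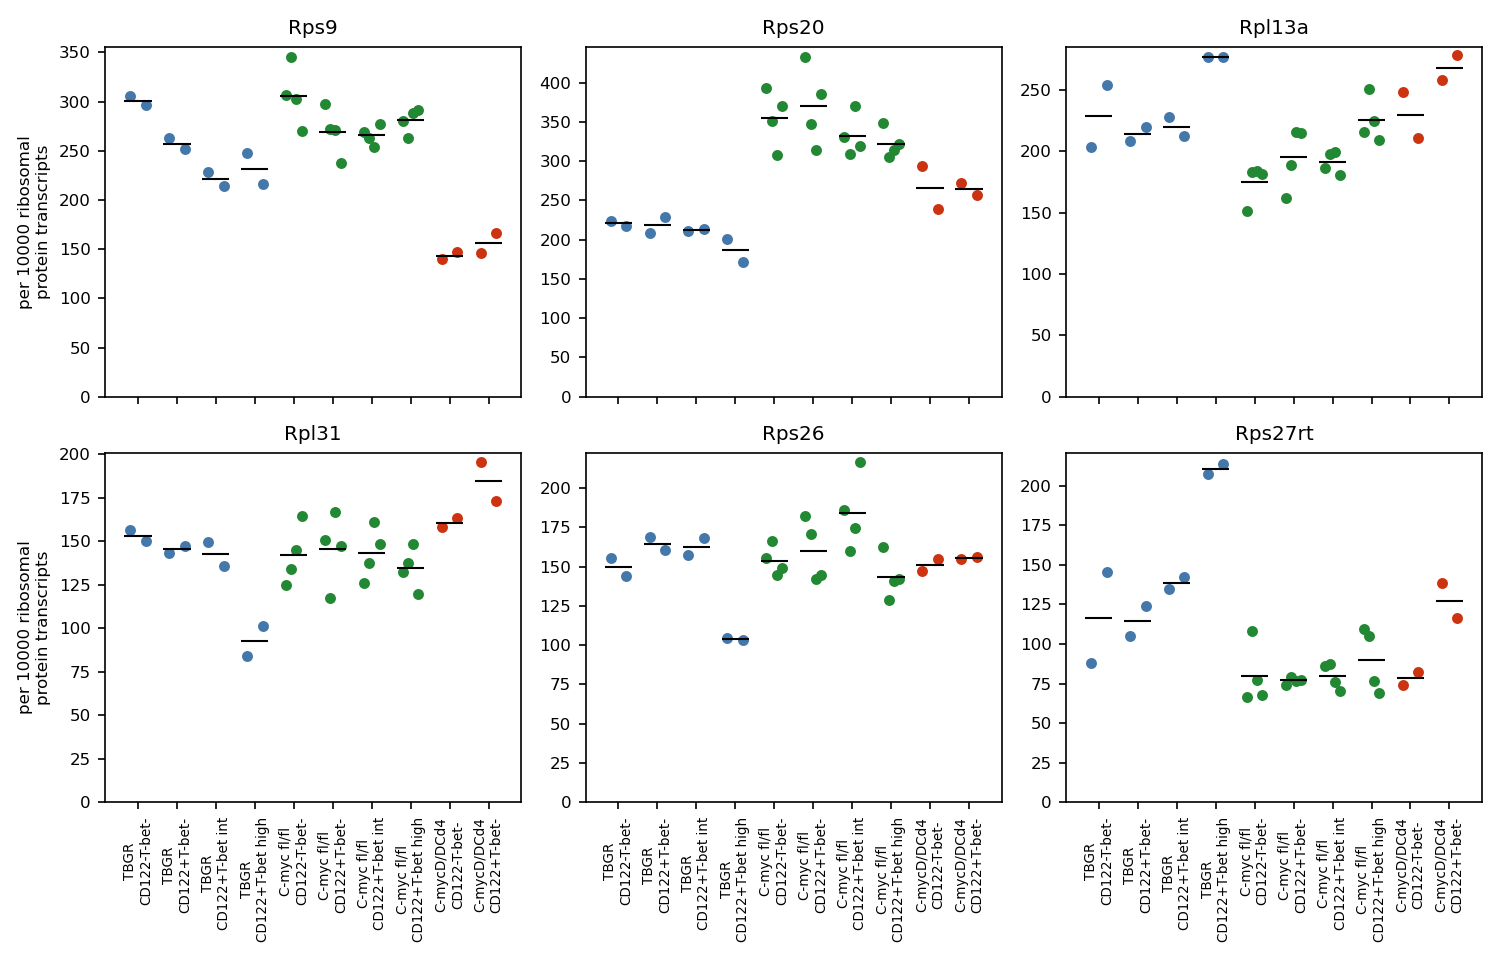
Transcripts per 10000 of the family (vertical axis) of Rps9, Rps20, Rpl13a, Rpl31, Rps26 and Rps27rt in every library, by mouse and population, with 1 point for each library and lines for means. Rps9 lies between 140.2 and 166.4 in the deleted mouse and between 214.2 and 345.3 in the other mice.

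Other members departed from the family in both directions in the deleted mouse. In CD122+T-bet- cells 16 members were called higher as a share of the family and 9 lower, where 69.6% and 2.89% of all genes were called, a background that reflects the smaller family sum as the denominator. Rps20 took 432.2, 347.6, 313.7 and 384.8 per 10000 in the C-myc fl/fl libraries and 272.7 and 256.3 in the deleted libraries, a ratio of -0.47. Rpl10a, Rpl5 and Rpl23 were called lower at -0.48, -0.40 and -0.39. Rpl5 binds the 5S RNA and, when free, Mdm2. Rpl13a, which can leave the ribosome as part of an inhibitor of translation, took 161.5, 189.0, 215.8 and 214.9 and then 257.5 and 278.5 per 10000, a ratio of 0.50 [0.37, 0.62]. Rpl17, Rps15a and Rps29 each had a ratio of 0.55, and Rpl13 one of 0.50. Rps9, Rps20 and Rpl5 among those lower, and Rpl17, Rps29 and Rpl13a among those higher, were called under every alternative run.

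In CD122-T-bet- cells the family took 4.89% to 6.20% of transcripts in the deleted and 3.52% to 7.59% in the C-myc fl/fl libraries, which overlapped. With the low-quality loci left out of the totals it took 8.31% to 9.40% and 9.51% to 12.5%, which did not overlap. On that total, and with 2000 remaining transcripts asked of each cell, 28 members were called lower. The members had a median CPM ratio of 0.09 beside 0.45 for all genes, and Rpl12 was called higher and Rps9 lower among 70 tested members, where 30.2% and 1.90% of all genes were called. The median turned negative, from -0.53 to -0.29, when cells were thinned, weighted equally or centred on all genes, when low-quality loci were left out, or when the deepest 10% of cells, cells with Rag1, Rag2 or Dntt, or cycling cells were removed. It was also negative without library 2 (-0.03) or library 4 (-0.09) of the C-myc fl/fl mouse and without library 2 of the deleted mouse (-0.24). The members called in CPM numbered 5 without library 3 of the C-myc fl/fl mouse, and 18 and 9 without library 1 and library 2 of the deleted mouse. In the deleted mouse 13 deep cells held 29.5% of the transcripts, with 10.4% of the family against 3.73% in the other cells. Double positive markers summed to 404 CPM in the deleted and 233 CPM in the C-myc fl/fl cells, and cycling genes to 2933 and 1217 CPM. The deep cells of the deleted mouse also had 642 against 113 CPM of Dntt, which is active in double positive thymocytes, and 5911 against 1686 CPM of cycling genes. Within the family, by contrast, 5 members were called higher and 9 lower, where 39.2% and 1.34% of all genes were called. Rps9 had the lowest ratio, and among members above 1000 transcripts it was followed by Rps20 at -0.46 and Rpl10a at -0.39. Rpl5 stood at -0.33, and these 4 genes were also called lower in the CD122+ cells. Rps20 took 392.5, 351.4, 307.3 and 370.4 per 10000 in the C-myc fl/fl and 293.3 and 238.9 in the deleted libraries. Rpl12, Rpl13a and Rpl19 were called higher at 0.41, 0.37 and 0.33. The populations were in different libraries in the deleted mouse but in shared libraries in the C-myc fl/fl mouse, so library 4 of the latter enters both comparisons.

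CD122+ over CD122- cells in the deleted mouse gave the direction opposite to that of the other mice, but this depended on which cells were kept. In CPM 42 of 69 members were called lower and 0 higher, where 24.5% and 30.8% of all genes were called, with a median of -0.42. After thinning the median was -0.01, with 9 members higher and 8 lower. It was 0.08 without the deepest 10% of cells, 0.65 with 61 members called higher without cells holding Rag1, Rag2 or Dntt, and 0.68 with 64 called higher without cycling cells. With the low-quality loci left out it was -0.57 with 55 called lower. The share of all genes called was not counted under these settings, so the counts of members have no background. The sums of cycling genes in these populations, 2933 CPM in CD122- and 449 CPM in CD122+ cells, are in the accounts above, and their part in the change of direction was not tested beyond these values. Within the family 12 members were called higher and 5 lower, where 53.8% and 10.1% of all genes were called. Rpl12 took 234.5 and 218.1 per 10000 in the CD122- and 166.6 and 164.6 in the CD122+ libraries, a ratio of -0.43 that was called under every alternative. Rpl3, which lies near the peptidyl transferase center, was called higher at 0.39, and Rps27a and Rpsa were called lower at -0.36 and -0.33.

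The mix of members within the family set the wild type mouse apart from the others. Over 70 members with at least 1000 transcripts, the median correlation of log2 shares was 0.966 between libraries of the same mouse and population, 0.958 between populations of the same mouse and 0.873 between mice for the same population. The low value came from pairs with the wild type mouse, at 0.844 with the C-myc fl/fl and 0.883 with the deleted mouse. Between the C-myc fl/fl and the deleted mouse it was 0.944 for the same population, where other populations of the wild type mouse gave 0.936. On the first principal component, with 63.3% of the variance, the wild type sums lay from -5.03 to -3.04, the C-myc fl/fl sums from 0.35 to 3.24 and the deleted sums from -0.19 to 1.21. Rpl23a, Rplp2, Rps7 and Rps18 weighed most on the wild type side and Rpl22l1, Rps23, Rpl5 and Rps20 on the other. The ends of Rpl23a and Rps18 are largely shared with other genes, so their levels are uncertain. In C-myc fl/fl against wild type cells Rpl23a had ratios of -1.43 in CD122- and -1.99 in CD122+ cells. Its copy Rpl23a-ps3, outside the family, had 0.39 and 0.28. Within the family, in C-myc fl/fl against wild type cells, 21.1%, 21.6%, 20.3% and 28.8% of tested members were called higher in CD122-, CD122+, int and high cells, where 12.8%, 15.4%, 17.9% and 30.5% of all genes were. Called lower were 36.6%, 36.5%, 36.5% and 38.4% of members, where 31.0%, 23.2%, 17.1% and 12.3% of all genes were. Rps23, a small subunit protein of the decoding center, took 171.7, 190.2, 217.3 and 214.4 per 10000 in the wild type CD122-, CD122+, int and high cells and 350.0, 354.5, 363.5 and 377.3 in the C-myc fl/fl cells. Rps7 took 89.6, 97.7, 99.2 and 119.2 and then 35.6, 37.7, 44.6 and 38.5 per 10000. For Rps23 and Rps7 the range of one mouse thus did not meet that of the other in any population. Genotype, age and animal all differ between these mice and cannot be told apart. The labels used here name no run of sequencing, so runs could not be compared.

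**Figure D5:**
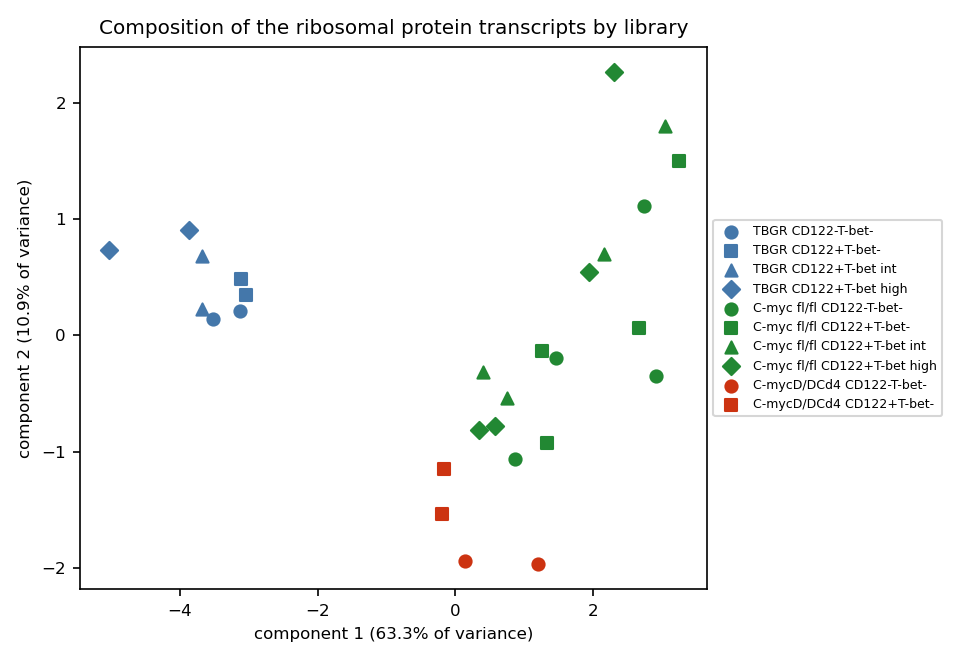
First and second principal components of the log2 shares of 70 members in the 28 sums, with 63.3% and 10.9% of the variance, by mouse and population. The wild type sums lie apart at the left, from -5.03 to -3.04, while the deleted sums lie at the near edge of the C-myc fl/fl sums.

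The stalk proteins took a smaller share of the family in the C-myc fl/fl than in the wild type mouse. Rplp0, which anchors the stalk to the large subunit, took 161.0, 153.4, 145.4 and 135.1 per 10000 in the wild type populations and 69.5, 75.3, 86.0 and 84.4 in the C-myc fl/fl populations. Rplp1 and Rplp2, the acidic proteins of the stalk, were likewise called lower in all 4 populations of the C-myc fl/fl mouse. This was not particular to the stalk, since 19 members, these included, were called lower in all 4 populations and 10 higher. All genes were not counted by that rule. With the deletion of C-myc, Rplp0 and Rplp1 were called lower in CPM in CD122+T-bet- cells at -1.41 and -1.01. Within the family their ratios of -0.26 and 0.14 were not called, and Rplp2 had too few transcripts to be tested.

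Most paralogs were less abundant than the genes they resemble, while Rps27l and Rps27rt were counted more often than Rps27. Other genes share 100% of the windows at the end of Rps27 and 88.4% of those of Rps27rt. How abundant these genes are beside each other is therefore uncertain. Rpl22l1, the paralog of Rpl22, was counted in 25.3%, 44.1%, 64.9% and 44.2% of wild type CD122-, CD122+, int and high cells after every cell had been thinned to 2000 transcripts, against 55.2%, 80.6%, 88.9% and 70.1% before. In the C-myc fl/fl cells the thinned shares were 43.3%, 57.4%, 65.5% and 51.8%, and in the deleted CD122- and CD122+ cells 17.97% and 23.4%. Its share of the family was called lower with the deletion at -0.54 in CD122+ and -0.60 in CD122- cells, while Rpl22 itself stood at -0.21, not called, and at -0.35, called lower. Rpl22 and Rpl22l1 are known to act in T cell development in opposite ways. Rps27l, a paralog of Rps27 induced by p53, was highest in T-bet int cells of both mice, with 140.8 CPM in the wild type and 201.0 CPM in the C-myc fl/fl mouse. It was lower in T-bet high cells, with 61.0 and 107.2 CPM, and within the family it was called lower at -1.25 and at -0.68. Rpl7l1, which belongs to the machinery of ribosome assembly, was counted at 49.4 to 90.8 CPM in all populations. It was called lower within the family at the T-bet int step and higher at the T-bet high step of the wild type mouse. These calls rest on 97, 85 and 64 transcripts in CD122+T-bet-, int and high cells, at 66.0, 65.8 and 90.8 CPM. After thinning Rpl7l1 was counted in 8.60%, 14.6% and 12.2% of these cells, which is the other direction at both steps. Rpl36al moved with its relative Rpl36a in CPM in that mouse, at 0.73 and 0.48 from CD122+T-bet- to int cells. Rpl10 was counted after thinning in 40.1% of wild type T-bet high cells and in 6.25% of C-myc fl/fl T-bet high cells, but its whole end is shared with 13 other genes. Rps19bp1, a nucleolar protein that binds Rps19, stayed at 2.5 to 27.2 CPM and was not tested in any comparison within a mouse or with the deletion.

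Partners of the ribosome outside the name rule were counted beside the family in CPM. Of 19 listed genes, which include elongation factors, subunits of the initiation factor eIF3 and Npm1, 17 were tested in each comparison. From CD122- to CD122+ cells 14 were called higher in the wild type and 11 in the C-myc fl/fl mouse, and 0 lower, where 41.4% and 39.1% of all genes were called higher. With the deletion 5 were called lower in CD122+ cells, namely Btf3, Eef1b2, Eef1g, Hnrnpa1 and Npm1, at a median of -0.94 for the list, where 12.4% of all genes were called lower. In CD122- cells the eIF3 subunits Eif3e, Eif3f and Eif3h were called higher, 3 of 17 where 30.2% of all genes were. Of 12 listed genes of ribosome biogenesis, 6 were tested in CD122+ cells and all 6 were called lower with the deletion, with a median of -1.41. These were Dkc1, Fbl, Ncl, Nolc1, Nop56 and Nop58, which act in the nucleolus. In CD122- cells 0 of 7 were called in CPM, where 30.2% of all genes were called higher and 1.90% lower. From T-bet int to high cells the biogenesis genes had a median of -0.65 in the wild type mouse, with 7 of 10 called lower, and of -0.68 in the C-myc fl/fl mouse, with 7 of 8 called lower, where 34.4% and 22.3% of all genes were. The members themselves had medians of 0.04 and -0.23 in these comparisons.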

How the data were processed

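Single NK1.1- IELPs (NK1.1+ in the series text, NK1.1- in the study's methods, which are followed here) of 3 mice were profiled with CEL-Seq2, giving 20 libraries with 96 sorted wells each. The authors aligned reads to GENCODE VM9 transcripts with bwa (BWA 0.6.2-r126 and bcl2fastq 2.17.1.14 in the submitters' processing notes), discarded reads with several best matches, and deposited expected counts of transcripts corrected for repeated UMIs of 6 bases. These estimated counts carry no normalization between cells. They were rounded and summed over the cells of each library and sorted population, which the deposited description of wells gives. Cells needed 2000 transcripts without mitochondrial genes and spike-ins. Each cell sat in its own well, and no doublet caller was run. Libraries used 2 sets of well barcodes, so shared barcodes are part of the design.

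Log2 ratios were taken with 0.5 transcripts added to each sum, in CPM and as a share of the family. The call rule (at least 100 transcripts, log2 ratio of 0.3, no overlap of libraries) stands in for a test, since the series text names 1 mouse for a genotype, which gives no replicates. Exact conditional binomial intervals (95%) and exact binomial intervals for shares of cells cover counting error only. Genes named in the text are, per comparison, up to 5 called members with the highest and the lowest ratio in CPM and within the family and at least 1000 transcripts, the 10 most abundant members, all paralogs and stalk proteins, and members just above or below 100 transcripts. Some genes that meet this rule are not reported here. Rps7, Rps18 and Rpl23a as genes that differ between mice, and Rpl38, Rpl31, Rpl28 and Rps14 in C-myc fl/fl cells, were added after their values were seen. The members and lists were chosen with earlier results of these data known. Alternatives were thinning to 2000 transcripts, equal weight of cells, a minimum of 3000 transcripts, other denominators and filters, added -ps loci and joined names, unrounded counts, and each library left out. Leaving out low-quality loci (correlation above 0.65 with 4 marker genes, and 2000 remaining transcripts per cell), cells with Rag1, Rag2 or Dntt, cycling cells or the deepest 10% was chosen after the data had been seen. Promoters came from RefSeq. Calculations used Python 3.11.15, numpy 2.4.6, pandas 2.3.3 and scipy 1.17.1, and were tested on simulated data.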

Additional observations from a re-analysis of the deposited data

Results flagged for a closer look

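In the C-myc fl/fl CD122+T-bet- cells, the share of the family in library 4 was 4.25% and its share of low-quality loci 57.7%, each far from the other 3 libraries. In the T-bet int cells of that mouse, library 4 stood apart for Rpl4 with 470 per 10000 family transcripts, for Rpl23 with 387 and for Rps6 with 262. Groups of 4 libraries were examined in 48 cases, and chance would set a library apart in about 1 in 20. A total of 29 members were higher in CD122+ than in CD122- cells in every C-myc fl/fl library but lower in both deleted CD122+ libraries than in the deleted CD122- libraries. All genes were not counted by this double rule. Taken singly, 39.1% of all genes were called higher in the C-myc fl/fl mouse and 24.5% lower in the deleted mouse. The difference between the mice was not tested, and the direction in the deleted mouse turned when cells with Rag1, Rag2 or Dntt, cycling cells or the deepest 10% of cells were removed. Wells without a cell held 3997 family transcripts, 0.437% of those in wells with a cell. The -ps loci, which are no members, held 82694 transcripts.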

How the results depend on the processing

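No paired analysis was possible because the results come from no test and libraries of different animals share only a number; populations of a C-myc fl/fl library were already compared within it. Of the values under alternatives other than leaving out a library, 272 kept direction and size, 56 moved and 12 reversed; when each library was left out in turn, 113 held, 8 moved and 3 reversed. Of 44 named calls within the family, 17 held under every alternative and 0 changed sign. No cell exceeded 2% of Kcnq1ot1, so that filter changed nothing. Calls under the alternatives were counted for members only, without the share of all genes. Except where stated, the cause of a change was not tested.

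The median CPM ratio with the deletion in CD122- cells (0.09) reversed to -0.37 after thinning, -0.35 with equal weight of cells, -0.36 relative to all genes, -0.30 without low-quality loci, -0.53 without Rag or Dntt cells, -0.32 without cycling cells and -0.29 without the deepest 10%. Its calls in CPM (2) went to 11, 11, 12 and 28 under the first 4 of these, to 0 without cycling cells and to 1 with genes outside the family as the total. Its calls within the family (14) were 9 with 1000 transcripts asked for.

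In CD122+ cells the calls in CPM with the deletion (26) were 63 without low-quality loci and 3 without cycling cells, and those within the family (25) were 14 with 1000 transcripts asked for. For CD122+ over CD122- cells of the deleted mouse, the median (-0.42) was -0.0080 after thinning (17 calls against 42), -0.020 with equal weight (15 calls), 0.65 without Rag or Dntt cells, 0.68 without cycling cells (64 calls) and 0.078 without the deepest 10% (14 calls). With 1000 transcripts asked for there were 27 calls in CPM and 6 within the family.

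In the C-myc fl/fl mouse the CD122 median (0.69) was 0.14 relative to all genes (3 calls against 53), 0.13 without low-quality loci (5 calls), 1.25 without Rag or Dntt cells and 1.32 without cycling cells. Calls within the family (2) were 4 after thinning, with 1 transcript asked for or without cycling cells, and 1 with equal weight or 1000 transcripts. In the wild type mouse the CD122 median (0.51) was 0.23 relative to all genes (26 calls against 63) and 0.20 without low-quality loci (22 calls). The T-bet int median (0.41) was 0.48, 0.47, 0.46, 0.30 (39 calls against 59) and 0.59 after thinning, with equal weight, with genes outside the family as the total, without low-quality loci and without cycling cells. Its calls within the family (6) were 3 with 1000 transcripts asked for and 12 without cycling cells.

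The T-bet high median of the wild type mouse (0.04) was 0.17 relative to all genes and -0.038 without cycling cells. That of the C-myc fl/fl mouse (-0.23) was -0.27 with 3000 transcripts per cell or without the deepest 10%, -0.047 relative to all genes, -0.084 without low-quality loci and -0.15 without cycling cells. Its calls in CPM (22) were 7, 13, 9 and 12 relative to all genes, with 1000 transcripts asked for, without low-quality loci and without cycling cells. Its calls within the family (4) were 2 after thinning, with 3000 transcripts per cell or with 1000 transcripts asked for. Pearson's r between mice was -0.20 after thinning and 0.43 without cycling cells for CD122 (0.19), and 0.42 without cycling cells for T-bet (0.58).

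With each library left out, the deletion median lay from -0.24 to 0.23 in CD122- cells, with 2 to 18 calls in CPM, and 26 to 69 members were called in CD122+ cells. Within the family 5 to 12 members were called for CD122 in the wild type mouse, 4 to 10 for T-bet int and 1 to 5 for T-bet high in the C-myc fl/fl mouse. Pearson's r for T-bet lay from 0.49 to 0.59. Sums of 4002 family transcripts in the smallest library limit what can be called for members below 1000 transcripts.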
